A study of Homo sapiens with 3 samples.

Results

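MicroRNA genes and microRNA host transcripts were examined in 293T cells after loss of TARBP2. They are the array probes whose platform annotation symbol starts with MIR and a digit or with MIRLET7, host genes with the suffix HG included. The rule found 578 of 20046 named genes, read by 583 of the array's 47323 probes. Of these, 561 probes carry the symbol of a microRNA gene itself and 22 carry the symbol of a host gene. The probes report primary transcripts, precursors or host transcripts, and not mature microRNAs.

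293T is an established human line of embryonic kidney origin that carries the SV40 large T antigen. The groups were siTARBP2-1, siTARBP2-2 and siControl, with 1 Illumina BeadChip array each. Each of the first pair is a different siRNA against TARBP2, and siControl is a control siRNA that the series design calls mock transfection. All cells grew in medium with 10% serum and gave total RNA 48 h after lipid transfection. Both siTARBP2 arrays form the knockdown group, so its replicates are the siRNAs, and nothing in the labels tells whether cultures were separate. The p-values measure only the spread between those arrays, which may be technical, and both comparisons share the 1 control array.

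A microRNA gene is transcribed as a long primary transcript, often from an intron of a host gene. DROSHA and DGCR8 cut a hairpin precursor out of it in the nucleus, and XPO5 exports the hairpin. In the cytoplasm DICER1, partnered by the double-stranded RNA binding protein TARBP2, cuts the hairpin to a duplex, and an Argonaute keeps 1 strand. TARBP2 thus acts on the hairpin, after the step at which the primary or host transcript is made. The seed near the 5′ end of the mature strand pairs with target messages.

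Mature sequences are shown for the microRNA genes whose probe was above background on all 3 arrays or moved past 1.5-fold, because these are the genes the values below describe. The arm shown is the one whose seed is shared with the most microRNA genes of the array, otherwise the 5p arm, and MIR1228 has both. Sequences and positions are RefSeq's (GRCh38.p14), and capitals mark the seed, bases 2 to 8. The array names no build, so these positions do not place its probes. RefSeq's table held a mature sequence for 25 of the 27 detected microRNA genes. MIR599 and MIR30B are named only. Of MIR130A the table held the 5p arm alone and of MIR199B the 3p arm alone, and these arms are shown.
hsa-miR-657 (chr17:81125291-81125313, minus strand): gGCAGGUUcucacccucucuagg
hsa-miR-373-3p (chr19:53788748-53788770, plus strand): gAAGUGCUucgauuuuggggugu
hsa-miR-300 (chr14:101041414-101041435, plus strand): uAUACAAGggcagacucucucu
hsa-miR-1185-5p (chr14:101042991-101043011, plus strand): aGAGGAUAcccuuuguauguu
hsa-miR-586 (chr6:45197734-45197755, minus strand): uAUGCAUUguauuuuuaggucc
hsa-miR-1228-5p (chr12:57194504-57194524, plus strand): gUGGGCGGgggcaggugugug
hsa-miR-1228-3p (chr12:57194555-57194574, plus strand): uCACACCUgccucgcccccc
hsa-miR-130a-5p (chr11:57641212-57641233, plus strand): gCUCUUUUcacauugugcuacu
hsa-miR-25-3p (chr7:100093571-100093592, minus strand): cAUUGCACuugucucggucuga
hsa-miR-125b-5p (chr21:16590253-16590274, plus strand): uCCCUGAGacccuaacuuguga
hsa-miR-199b-3p (chr9:128244745-128244766, minus strand): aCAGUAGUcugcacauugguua
hsa-miR-761 (chr1:51836375-51836396, minus strand): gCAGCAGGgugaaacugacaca
hsa-miR-129-2-3p (chr11:43581450-43581471, plus strand): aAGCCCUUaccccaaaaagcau
hsa-miR-488-5p (chr1:177029412-177029432, minus strand): cCCAGAUAauggcacucucaa
hsa-miR-345-5p (chr14:100307876-100307897, plus strand): gCUGACUCcuaguccagggcuc
hsa-miR-607 (chr10:96828684-96828704, minus strand): gUUCAAAUccagaucuauaac
hsa-miR-1253 (chr17:2748139-2748159, minus strand): aGAGAAGAagaucagccugca

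The arrays were checked on the targeted gene. TARBP2 had a normalized log2 signal of 6.27 with siTARBP2-1 and 6.09 with siTARBP2-2, against 8.38 with siControl, a mean difference of -2.21 ± 0.25 (moderated SE, n = 2 against 1). Mean raw signal was 680.4, 514.3 and 528.5 on the siTARBP2-1, siTARBP2-2 and siControl arrays, so raw readings of the siTARBP2-1 array run high, and all differences below are of normalized signal. Of 8 genes listed as 293T markers, 5 were detected on all 3 arrays, among them the neurofilament genes NEFL and NEFM, while PAX2 and L1CAM were detected on none. Of 8 markers of blood, liver, endothelium and other tissues, 6 were on no array, and ALB and APOA1 were above the cut on the control array only. The summed raw signal of these 8 was 576.6 and 527.8, against 540.5 with siControl, and its part in the results was not tested. Precision is limited by having 3 arrays.

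Few microRNA probes stood above background. A detection p is the share of negative control probes at least as bright, and a probe counted as detected below 0.01. By this definition a share near 0.01 of probes without a transcript would pass on each array. By this cut 28 of the 583 probes (4.80%) were detected with siTARBP2-1 and 23 (3.95%) with siTARBP2-2, against 24 (4.12%) with siControl. Over all probes the shares were 40.5%, 39.0% and 40.1%. The microRNA share thus lay near 4 to 5% on each array, knockdown or control, beside a share near 40% over all probes (no test was made of these shares).

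**Figure D1:**
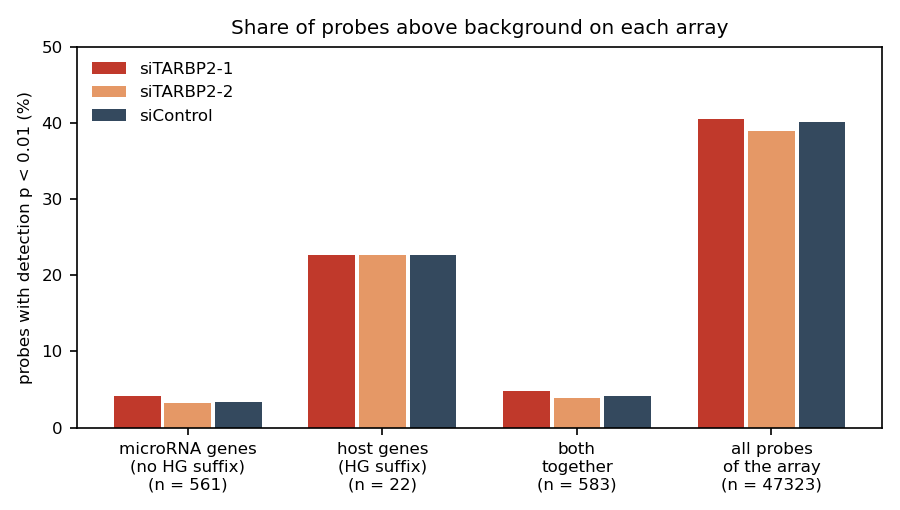
Share of probes with a detection p under 0.01 (y axis, percent) on the siTARBP2-1, siTARBP2-2 and siControl arrays, for microRNA genes, host genes, both together and all probes; each bar is 1 array, so there is no error bar. MicroRNA genes lie between 3.21% and 4.10%, host genes at 22.7% and all probes between 39.0% and 40.5%.

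Host gene and microRNA gene probes were counted apart. Of 22 host probes, 5 (22.7%) were detected on each array, while of 561 microRNA gene probes 23 (4.10%) were detected with siTARBP2-1 and 18 (3.21%) with siTARBP2-2, against 19 (3.39%) with siControl. Over any array, 33 of the 583 probes were detected, and these are 27 microRNA genes and 6 host genes. The other 550 were on no array and have no interpretable difference here. MIR17HG, host of the miR-17-92 cluster, is among them, with detection p of 0.13 and 0.0961 with the siRNAs, against 0.186 with siControl (chosen after its values were seen).

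The detected probes differed in which arrays saw them. All 3 arrays detected 18 of the 33 (54.5%), while of the 20119 probes of the whole table detected anywhere, 17666 (87.8%) were on all 3. Their raw signal was low: the 18 had medians of 117 and 108 with siTARBP2-1 and siTARBP2-2, against 102 with siControl, where all probes detected on all 3 arrays had 525.5 and 360.9, against 383. A further 3 (MIR657, MIR300 and MIR30B) were detected with both siRNAs and not with siControl, as were 1.44% of the 20119. MIR1267, MIR1323 and MIR1909 were detected with siControl alone (2.34% of the 20119). MIR373, MIR557, MIR630 and MIR1915 were detected with siTARBP2-1 alone (2.76%), and MIR9-1HG and MIRLET7D with siTARBP2-2 alone (1.52%). MIR204, MIR221 and MIR9-2HG were detected with siTARBP2-1 and siControl (3.20%). Counts this small are too few to set against these shares. Detections on 1 array alone may include probes without a transcript that passed the cut, which was not tested.

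Detected genes were spread over families and loci. Among the mature sequences held, no seed was carried by more than 1 detected microRNA gene. MIR599, MIR30B and arms that were not held, such as the 3p arm of MIR130A, were not compared. Of the 10 genes on the array with the let-7 seed, a family that restrains growth genes, only MIRLET7D passed the cut on any array, and of the 6 with the miR-25-3p seed only MIR25. Of 7 genes with the miR-373-3p seed, which marks the stem cell clusters of miR-302 and of miR-372, only MIR373 did. The 5 genes with the seed of miR-93 and miR-106b and the 7 with that of miR-16, which restrain cell cycle regulators, had 0 detected (families named after detection was known). By RefSeq order, 191 genes lay within 10000 bases of another on the array, and 10 of them (5.24%) were detected, against 17 of 370 single genes (4.59%). The largest such cluster, the imprinted microRNA cluster of chromosome 14 with 37 genes, had 2 detected, MIR300 and MIR1185-1. Hairpin GC content had a median of 52.7% for 11 genes on all 3 arrays, 48.3% for 11 on fewer and 48.3% for 434 on none, with wide overlap.

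MIR1228 and MIR586, the microRNA genes with a log2 signal above 8 on each array, read lower with siTARBP2-2 and near control with siTARBP2-1. MIR1228 is a mirtron, a hairpin that is itself a spliced intron, of the lipoprotein receptor gene LRP1. Its log2 signal was 8.84 with siTARBP2-1 and 8.23 with siTARBP2-2, against 8.75 with siControl. MIR586, within SUPT3H, read 8.63 and 8.11, against 8.66 with siControl. In both, the siTARBP2-1 reading sat beside the control and the siTARBP2-2 reading was the low one. The differences were 0.09 and -0.53 for MIR1228 and -0.03 and -0.55 for MIR586, so neither reached 1.5-fold. MIR488, within the neuronal gene ASTN1, had the same order, with 5.97 and 5.54, against 5.95 with siControl.

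MIR130A, MIR599 and MIR125B2 read nearly alike on all arrays. MIR130A, of the miR-130 and miR-301 family, had 7.70 and 7.57, against 7.70 with siControl. MIR599, within VPS13B, had 7.15 and 7.26, against 7.02. MIR125B2, a human relative of the worm lin-4, had 6.44 and 6.45, against 6.41. The largest mean difference among these 3 was 0.18 ± 0.25 for MIR599 (moderated SE, n = 2 against 1), which is smaller than its error.

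MIR761 and MIR25 were the highest over control among microRNA genes detected on all 3 arrays. MIR761, within the peptidase gene NRDC, had 6.28 and 6.20, against 5.90 with siControl, a mean difference of 0.35 ± 0.24 (moderated SE). MIR25, of the miR-106b-25 cluster in the replicative helicase gene MCM7, had 5.57 and 5.71, against 5.38, a mean difference of 0.26 ± 0.25. Both knockdown readings were above control in each gene, by less than 1.5-fold. The other 6 microRNA genes on all 3 arrays (MIR129-2, MIR1185-1, MIR1253, MIR345, MIR607 and MIR199B) had mean differences from -0.11 to 0.13.

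**Figure D2:**
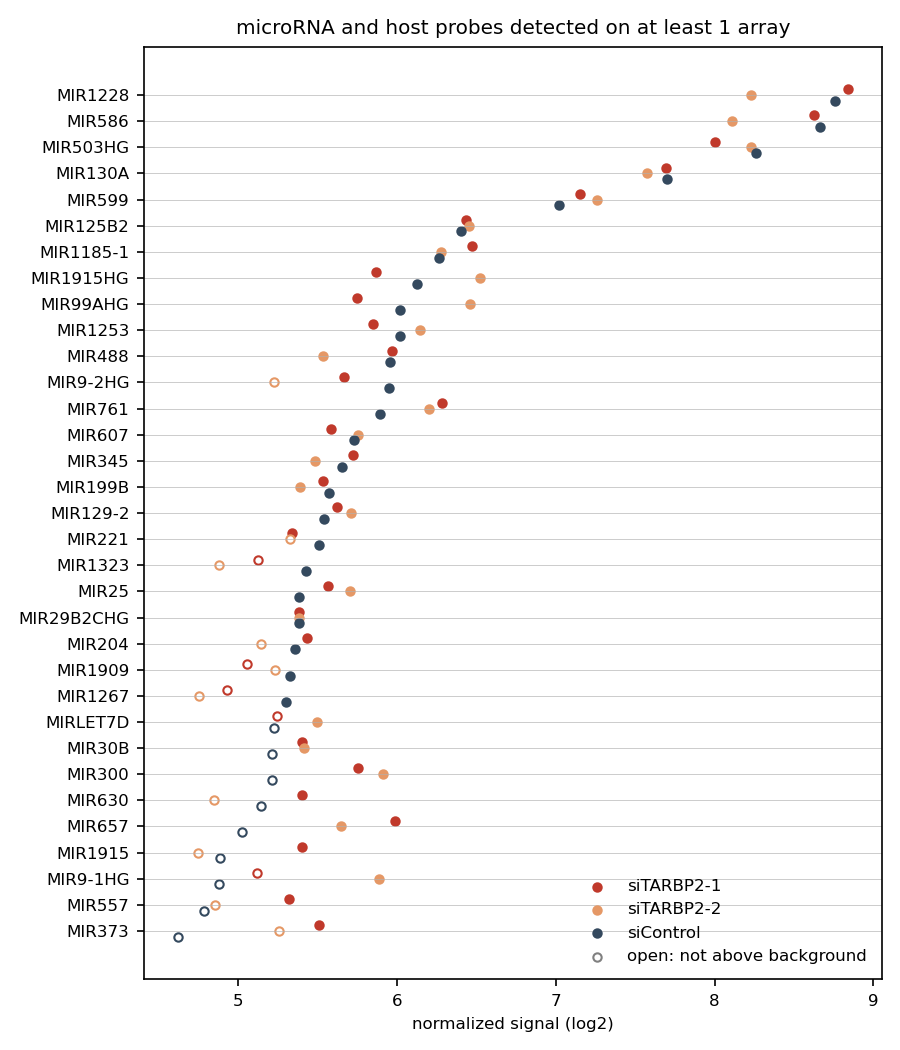
Normalized log2 signal (x axis) of the 33 microRNA and host probes detected on at least 1 array (rows, ordered by the control signal), with 1 point per array and open points for readings not above background. MIR1228, MIR586 and MIR503HG read above 8 on all 3 arrays, and the open points lie at 5.33 or lower.

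Probes that passed the fold rule upward did so from a control reading not above background. MIR657, within the kinase gene AATK, had 5.99 and 5.65 with the siRNAs, against 5.02 with siControl, where it was not detected. Its difference was 0.97 with siTARBP2-1 and 0.62 with siTARBP2-2, and the level was at least 1.44-fold higher in the knockdown. Such a bound sets the knockdown mean against the probe's own control signal or, where higher, the dimmest signal that counted as detected on that array. It carries no array error and holds only under the normalization used here. With the authors' deposited values the mean log2 differences of MIR657 and MIR300 were 0.36 and 0.29, smaller changes than their bounds. That of MIR373 with siTARBP2-1, 0.45, was a larger change than its bound.

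MIR373 and MIR300 belong to microRNA clusters named above. MIR373 had 5.51 and 5.25, against 4.62 with siControl, and only the siTARBP2-1 reading was above background. Its differences were 0.89 and 0.64, the second of them between readings that both were not above background. With siTARBP2-1 the level was at least 1.16-fold higher, and with siTARBP2-2 no bound can be given. MIR300 had 5.76 and 5.92, against 5.21 with siControl, with differences of 0.55 and 0.70 and a bound of at least 1.46-fold higher. The 2 probes past 1.5-fold higher with both siRNAs were thus MIR657 and MIR373, and MIR300 missed that mark with siTARBP2-1.

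The mark of 1.5-fold with both siRNAs was passed upward by 2 of the 33 (MIR657 and MIR373), where 0.477% of all tested probes passed it, and downward by 0 of the 33, where the share was 0.76%. Among tested probes not detected on the control array, which were tested because a knockdown array detected them, 5.3% passed upward, and 2 of the 9 microRNA probes of this kind did. Among probes detected on all 3 arrays 0.198% passed upward and 0.453% downward, and 0 of 18 microRNA probes did either. With 9 such probes the counts are too few to set against these shares. No microRNA probe passed with both siRNAs without background correction, with the larger offset or with the authors' deposited values. Only 27, 41 and 33 of all 20119 tested probes, up or down, passed in these settings. A list of 33 is too small to set against these counts. With the authors' deposited values MIR657 differed by 0.45 and 0.27 and MIR373 by 0.45 and 0.34. With equal array medians the 2 were MIR373 and MIR300, and the split over all tested probes was 196 higher and 98 lower in place of 96 and 153.

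Taken one siRNA at a time, siTARBP2-1 had 2 microRNA probes higher (MIR657 and MIR373) and 0 lower, beside 1.68% and 1.9% of all tested probes. With equal array medians this was 6 higher and 0 lower, where the split over all tested probes was 2063 higher and 203 lower in place of 338 and 382. siTARBP2-2 had 4 higher (MIR657, MIR373, MIR300 and MIR9-1HG) and 1 lower (MIR9-2HG), beside 4.97% and 5.88%. With equal array medians this was 3 higher and 3 lower. The split over all tested probes was then 633 higher and 1485 lower in place of 999 and 1183. The 2 and the 4 higher were all among the 9 probes not detected on control, where 15.7% and 23.8% of all tested probes passed. MIR9-2HG was 1 of the 6 detected on control and not on both knockdown arrays, where 24.3% passed downward with siTARBP2-2. None of these single comparisons has a replicate check.

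Some of the readings lower in the knockdown came from probes near the detection limit. MIR1323, of the placental cluster on chromosome 19, had 5.12 and 4.88, against 5.43 with siControl, and was at least 1.08-fold lower. MIR1267, within NALF1, had 4.93 and 4.76, against 5.30, with a bound of at least 1.03-fold lower with siTARBP2-1. MIR221, which represses the cell cycle inhibitor CDKN1B, had 5.34 and 5.33, against 5.51. For MIR1323 and MIR1267 both knockdown readings were below the cut and below control. Mean differences were -0.43 ± 0.26, -0.46 ± 0.25 and -0.18 ± 0.24 (moderated SE).

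The remaining microRNA genes detected on 1 or 2 arrays were near the detection limit. MIRLET7D, of the let-7 family, had 5.24 and 5.50, against 5.22 with siControl. MIR30B, of the miR-30 family, had 5.40 and 5.41, against 5.21. MIR204, within TRPM3 and known from the retinal pigment epithelium, had 5.43 and 5.14, against 5.36. MIR557, MIR1915 and MIR630 were above background with siTARBP2-1 alone, where they were at least 1.02-fold, 1.08-fold and 1.08-fold higher than with siControl. Their siTARBP2-2 and siControl readings were both not above background and are not compared. MIR1909, in the exonuclease gene REXO1, had 5.05 and 5.23, against 5.33.

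**Figure D3:**
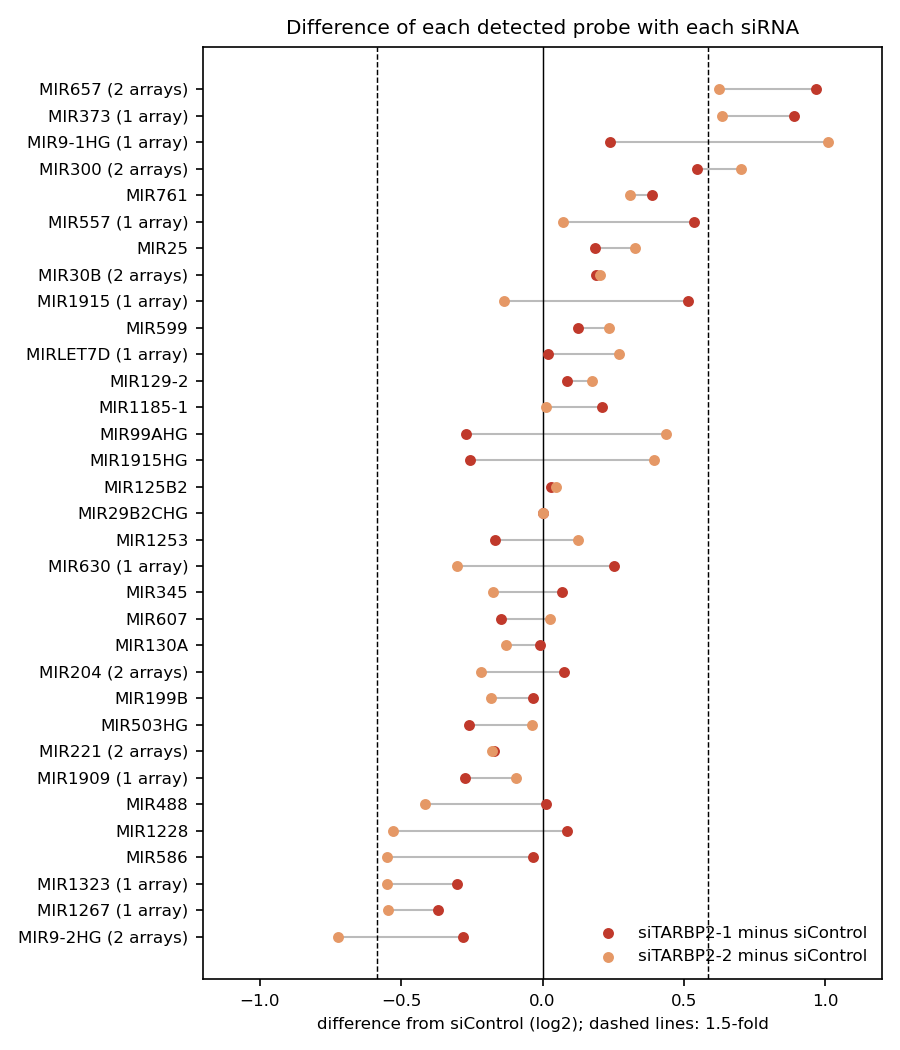
Difference from siControl (x axis, log2) of each of the 33 detected probes with siTARBP2-1 and with siTARBP2-2, ordered by the mean; dashed lines mark 1.5-fold and the row labels give the number of arrays for probes not detected on all 3. Only MIR657 and MIR373 lie past the right line with both siRNAs, and no probe lies past the left line with both.

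Among host genes, MIR503HG, which hosts miR-503 and its X chromosome neighbours, had a log2 signal above 8 on each array. It had 8.0 and 8.23, against 8.26 with siControl, a mean difference of -0.15 ± 0.25 (moderated SE). MIR29B2CHG, host of miR-29b-2 and miR-29c, read 5.38 on each array. The probes of MIR503 and MIR424 were on no array (chosen after their values were seen).

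MIR99AHG and MIR1915HG differed in sign between the siRNAs. MIR99AHG, host of miR-99a, let-7c and miR-125b-2, had 5.75 with siTARBP2-1 and 6.46 with siTARBP2-2, against 6.02 with siControl. MIR1915HG had 5.87 and 6.52, against 6.13. In each, siTARBP2-1 was below and siTARBP2-2 above control. Both further probes of MIR99AHG were on no array. Mean differences were 0.08 ± 0.34 and 0.07 ± 0.33 (moderated SE).

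Host genes of the neural microRNA miR-9 lay on opposite sides of control with siTARBP2-2. MIR9-1HG had 5.12 and 5.89, against 4.88 with siControl, and was above background only with siTARBP2-2, where it was at least 1.51-fold higher. MIR9-2HG had 5.67 and 5.22, against 5.95 with siControl. With siTARBP2-2 it was not above background and at least 1.48-fold lower. With the authors' deposited values the siTARBP2-2 log2 differences of MIR9-1HG and MIR9-2HG were 0.47 and -0.34, smaller changes than these bounds. With siTARBP2-1 MIR9-1HG cannot be set against control, since both readings were not above background. The mean difference of MIR9-2HG was -0.50 ± 0.28 (moderated SE), with both knockdown readings below control.

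No microRNA or host probe passed the test. The limma fit over all 20119 tested probes, with Benjamini-Hochberg adjustment, called 0 of the 33 and 0 probes in all (0%), with an adjusted p of 0.99991 for each of the 33. At an unadjusted p under 0.05 there were 3 of the 33, MIR657 (limma unadjusted p = 0.0221), MIR373 (0.0223) and MIR300 (0.0419), where 1.99% of all tested probes and 7.56% of those not detected on control (upward only) had one. All 3 were not above background on the control array. Without background correction or with the larger offset, 0 of the 33 had an unadjusted p under 0.05, beside 245 and 263 of the 20119. With equal array medians or the authors' deposited values it was 0 too, beside 79 and 257. With a trended, robust prior it was 1, beside 304. A list of 33 is too small to set against these counts. TARBP2 itself did not pass at either probe (limma adjusted p = 0.99991), so the fit, with 1 residual degree of freedom, could not call a difference of its size. The test therefore leaves the microRNA transcripts unresolved, and a missed threshold does not show that they did not differ.

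As a list, the 33 probes had a median difference of 0.03 with siTARBP2-1 and 0.01 with siTARBP2-2, beside 0.00 and 0.01 over all tested probes. The 18 on all 3 arrays had medians of 0.01 and 0.02, beside 0.00 and 0.01. With siTARBP2-1 their differences ran from -0.27 to 0.39 and with siTARBP2-2 from -0.55 to 0.44. Their median size, with the sign left off, was 0.11 and 0.18, beside 0.14 and 0.19 over all probes on all 3 arrays. For the 33 it was 0.19 and 0.23, beside 0.15 and 0.21 over all tested probes, so the order of the sizes turned with the probes taken, and it was not tested.

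Many microRNA genes lie inside another gene, and their probes could be set beside that gene. By RefSeq, 179 of the 561 microRNA genes lie in a host on the same strand whose own brightest probe was detected, and 8 of these (4.47%) were detected themselves. With a host probe that was not detected it was 4 of 65 (6.15%), and outside any annotated gene 6 of 122 (4.92%). A detected host thus went with no higher share of detected microRNA probes than either of these. The share was 4.08% (4 of 98) in same-strand hosts without a probe and 4% (1 of 25) within genes of the opposite strand. These counts are few and were not tested. For 72 genes the strand was not in the tables used.

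The 8 detected pairs mostly did not read alike. MIR586 and SUPT3H, a subunit of SAGA-type acetyltransferase complexes, were the exception. SUPT3H had 7.38 with siTARBP2-1 and 6.87 with siTARBP2-2, against 7.38 with siControl, differences of -0.01 and -0.52 that lie beside -0.03 and -0.55 for MIR586. No other pair lay within 0.25 of each other with both siRNAs. These pairs and this distance were chosen after the values were seen.

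MIR657 and its host lay on opposite sides of control: AATK differed by -0.20 and -0.17, while MIR657 was higher with both siRNAs. NRDC, a metallopeptidase, differed by -0.23 and -0.18 beside 0.39 and 0.31 for MIR761. MCM7 differed by 0.03 and -0.17 beside 0.18 and 0.33 for MIR25. REXO1 was 0.13 and 0.60 above control beside -0.28 and -0.09 for MIR1909. The signs matched in 2 of 8 pairs with siTARBP2-1 and in 3 of 8 with siTARBP2-2, and 1 host, REXO1, passed 1.5-fold with an siRNA. For MIR657, MIR1909, MIR1915 and MIR630 these signs include readings not above background. LRP1, the host of MIR1228, and ASTN1, the host of MIR488, were on no array, while both microRNA probes were detected on all 3. The same held for VPS13B and MIR599, whose strands could not be compared.

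**Figure D4:**
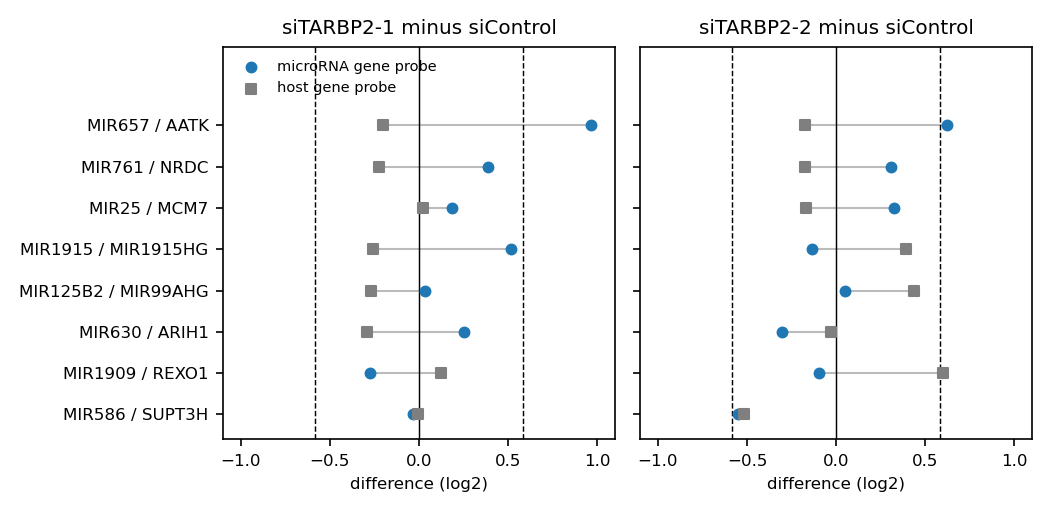
Difference from siControl (x axis, log2) of the microRNA gene probe (circle) and of its same-strand host gene probe (square) for the 8 pairs in which both were detected on at least 1 array, with siTARBP2-1 on the left and siTARBP2-2 on the right. The markers of MIR586 and SUPT3H nearly coincide in both panels, and those of MIR657 and AATK lie on opposite sides of 0.

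Hosts without a MIR symbol were also read as a list of 81 genes, of which 58 were tested. By the limma test 0 changed, and the median difference was 0.02 with siTARBP2-1 and -0.06 with siTARBP2-2. Over all 11768 tested genes, with 1 probe each, 0 changed and the medians were 0.004 and 0.025. With both siRNAs 0 passed 1.5-fold in either direction, where 53 of the 11768 genes passed upward and 56 downward. A list of 58 genes is too small to set against these counts. DNM1, a dynamin that lies across from MIR199B on the other strand, was above background with siTARBP2-1 alone. Its differences were 0.59 and 0.34, the second of them between readings that both were not above background. TXNRD1, a thioredoxin reductase, differed by -0.39 and -0.32, and the dynamin DNM2 by 0.26 and 0.25.

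The microRNA processing list had 32 of 36 genes tested, and 0 changed by the limma test. Its medians were -0.08 and -0.06, beside 0.004 and 0.025 over all 11768 tested genes, with 1 probe each. With both siRNAs 1 gene, TARBP2, was lower by 1.5-fold and 0 were higher, where 56 of the 11768 genes were lower and 53 higher. AGO4, an Argonaute, differed by -0.38 and -0.45, but it was detected on the control array alone. TNRC6B, a scaffold that Argonautes recruit for silencing, differed by -0.30 and -0.68. TENT2, a poly(A) polymerase, differed by -0.20 and -0.56. DROSHA differed by 0.01 and 0.12, DGCR8 by -0.23 and 0.06 and XPO5 by -0.21 and 0.12. These genes, whose products make and export the hairpin, lay within 1.5-fold of control with each siRNA (3 genes outside the naming rule, picked with their values known).

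The authors' deposited table gives a log fold change, of unstated base, and a class of up-regulated or background for each accession. It held 573 of the member accessions, and 0 of them were in the up-regulated class, beside 2.61% of all 39747 accessions. Only 31 of the 573 were detected on any array, where 42.5% of all probes were, so the compared sets are unlike. A list of 31 is too small to set against the share in that class. In the authors' deposited table every accession of that class had a log fold change of 0.20 or more, and the members ran from -0.21 for MIR586 to 0.19. MIR657 had 0.177 and MIR373 0.175 in the authors' deposited table, just under that mark. The authors' normalized values gave log2 mean differences of 0.36 and 0.39 for these genes, so the deposited log fold changes are not set beside the log2 values above.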

How the data were processed

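The authors deposited, per the file headers, a non-normalized table (average signal intensity and detection p-value by probe and array) and a matrix of normalized intensity values with the same distribution on every array. Another deposited table gives a log fold change per accession, whose base (log2 or another) is not stated, and a class. Per the submitters' processing notes lumi was used; its version is not given in the sources used here.

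The non-normalized signals went through neqc of limma 3.58.1 (R 4.3.3), which removes background by means of the detection p-values, adds an offset of 16, and quantile normalizes. This widens differences of dim probes and hides a shift of most transcripts together. The 20119 probes under 0.01 in detection p on some array entered lmFit and eBayes (two-sided, Benjamini-Hochberg, 0.05), with 1 residual and 5.69 prior degrees of freedom. The script was tested on simulated data. For gene lists the brightest probe of a gene was taken.

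Symbols came from the platform annotation (30113 of 47323 probes had 1). All 583 member probes matched RefSeq (GRCh38.p14), used for names, neighbours and sequences. Members and lists were chosen with earlier results of these data known. Named were all detected members, TARBP2, and up to 6 genes per list, ranked by the smaller of their differences where both siRNAs had the same sign. Exceptions are marked in the text. The values of 1 list gene are not reported here. Alternatives changed background correction, offset, scaling, values, filter, variance prior, probes per gene and replicates.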

Additional observations from a re-analysis of the deposited data

How the results depend on the processing

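No paired analysis was possible because the groups share only 1 replicate number. The limma count of changed probes was 0 under all 8 processing alternatives (400 at unadjusted p under 0.05 in the setting reported, and 79 to 1511 in the alternatives), for the members too. Member probes past 1.5-fold with both siRNAs, 2 as reported, were 0 without background correction, with an offset of 50 and with the authors' deposited values, all of which shrink differences of dim probes by construction, and 2 to 5 by 1 siRNA alone. Their median mean difference, 0.00, was 0.0505 with equal array medians (where that of all tested probes moved to 0.11) and 0.0637 with a detection cut of 0.05, and ran from 0.0119 to 0.0311 by 1 siRNA alone. That cut gave 54, 45 and 45 detected member probes (9.26%, 7.72% and 7.72%) on the siTARBP2-1, siTARBP2-2 and siControl arrays. Over all probes the shares were 46.7%, 44.5% and 45.2%. By its definition a share near 0.05 of probes without a transcript would pass it on each array. Equal array medians turned the sign of the mean difference of MIR1253 (0.0454), MIR345 (0.0172), MIR130A (0.0505) and MIR630 (0.0354), all near 0. The siRNAs taken alone gave the other sign from the mean for 10 members: MIR99AHG and MIR1915HG ran from -0.27 to 0.44 and -0.26 to 0.40, MIR1253 from -0.17 to 0.13, MIR345 from -0.17 to 0.0679, MIR607 from -0.15 to 0.0251, MIR488 from -0.42 to 0.0139, MIR1228 from -0.53 to 0.0875, MIR204 from -0.22 to 0.0743, MIR1915 from -0.14 to 0.51 and MIR630 from -0.30 to 0.25. With 1 array per siRNA or control, signals near background set the limit.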
